A study of Scophthalmus maximus with 8 samples.

Results

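Runs of neighbouring chromatin regions that were open in the turbot (*Scophthalmus maximus*) embryo and had no peak at any later stage are described here. The members were chosen by the presence and absence of ATAC-seq peaks. Peaks of the 4 stage lists that shared at least 1 bp were joined into regions, and a region was called 3dpf-only when it held a 3dpf peak and no peak at 15dph, 23dph or 37dph. A member is a 3dpf-only region in a run of 5 or more consecutive 3dpf-only regions on 1 numbered chromosome, so that no region with a later peak lies between the first and the last of the run. On the 22 numbered chromosomes, 8111 of 114155 regions were members, and they formed 1266 runs.

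Embryos at 3dpf (days post fertilization), the phylotypic stage, were used whole, and pronase was applied to free them from the chorion. They were set against larvae at 15dph (days post hatching), fish at 23dph and juveniles at 37dph. By morphology these were the pre-metamorphic stage, the climax of metamorphosis and the post-metamorphic stage. For these ages the hind portion of the body, counted from the cloaca, was not sampled. The labels name no strain or genotype, list 2 replicates per stage and attach 1 peak list to both. The study describes the replicates as biological and independent. Whether they came from separate batches of fish is not said in the labels. The time in collagenase, used to separate the cells, also became longer with each stage. Age, sampled material and this treatment change together and cannot be told apart. A site open in few cells of a whole animal can fall below detection.

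ATAC-seq marks DNA that the Tn5 transposase can reach, which is mostly promoters and enhancers. In vertebrates, genes that pattern the embryo often lie among many distal enhancers, which can be spread over long stretches of DNA around the gene, so several open regions in a row may belong to the same gene. Many such enhancers are closed again as cells differentiate. Flatfish form a symmetrical larva first and become asymmetric at metamorphosis, long after the phylotypic stage.

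The 3dpf list held 94714 peaks. The later lists were shorter, with 57611 (15dph), 47853 (23dph) and 46248 peaks (37dph). Peaks had been kept by the Irreproducible Discovery Rate (IDR), which measures how well a peak's rank repeats between replicates. With 1 list per stage there is no value per replicate. No difference could be tested over samples, since peaks and regions are not replicates, and shares carry 95% Wilson intervals that cover counting error only. The lists give no read depth, but the study's sequencing summary does, and there both 3dpf libraries had fewer mapped reads than any library of 15dph or 37dph. At 23dph, 1 library had fewer mapped reads than 1 of the 3dpf libraries. The summary counts all mapped reads, whereas only short fragments were used, and their number per library is not given. Whether depth affected the length of the lists was not tested. Genes and sequences at the runs were not analysed here, so the runs are named by their position on the assembly ASM1334776v1, counted from 1.

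Of all regions, 38.0% were 3dpf-only, and 7.11% (6.96 to 7.26) were members. Members made up 18.7% (18.3 to 19.1) of the 43402 3dpf-only regions and 8.66% of the 93617 regions with a 3dpf peak. The remaining 35291 3dpf-only regions stood alone or in runs of up to 4. Among these, 13513 regions had no 3dpf-only neighbour. A 3dpf-only region can hold more than 1 peak only where 3dpf peaks overlap each other, and each of the 8111 members held exactly 1.

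The number of members depended on the length of the lists, of which that of 3dpf was the longest. When each list was cut to its 46248 strongest peaks, 18.2% of regions were 3dpf-only, and 778 regions in 133 runs met the same rule. Of the 8111 member peaks, 5595 were not among the strongest 46248 of 3dpf, and 519 were still in runs.

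Most runs were short. A total of 548 runs had exactly 5 regions, 300 had 6 and 178 had 7, and the median was 6. There were 80 runs of 10 or more regions, which held 980 members (12.1%), and 14 runs of 15 or more. The longest runs had 20, 21 and 22 regions, with 2 runs at 22. At the threshold, the 548 runs of exactly 5 had a median span of 14.7 kb, and the 1092 runs of exactly 4, just outside it, one of 11.02 kb. When each run was summarised by the median over its regions, the median run of 5 had a fold enrichment over local background of 4.35 and a peak width of 284 bp, and the median run of 4 had 4.47 and 286.5 bp.

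Runs of this length were also counted for the other classes of regions. All-stage regions, with a peak in each of the 4 lists, were 24.9% of the total and formed 348 runs of 5 or more, with 1978 regions (6.95% of their class) and at most 10 in a row. Regions specific to 37dph (4.68% of the total) formed 1 such run, of 6 regions. The 15dph-only and 23dph-only regions (4.95% and 2.69% of the total) formed 0, and their longest runs had 4 and 3 regions. How often a class forms runs depends on its share of all regions, so these counts do not by themselves set the embryo apart.

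**Figure D1:**
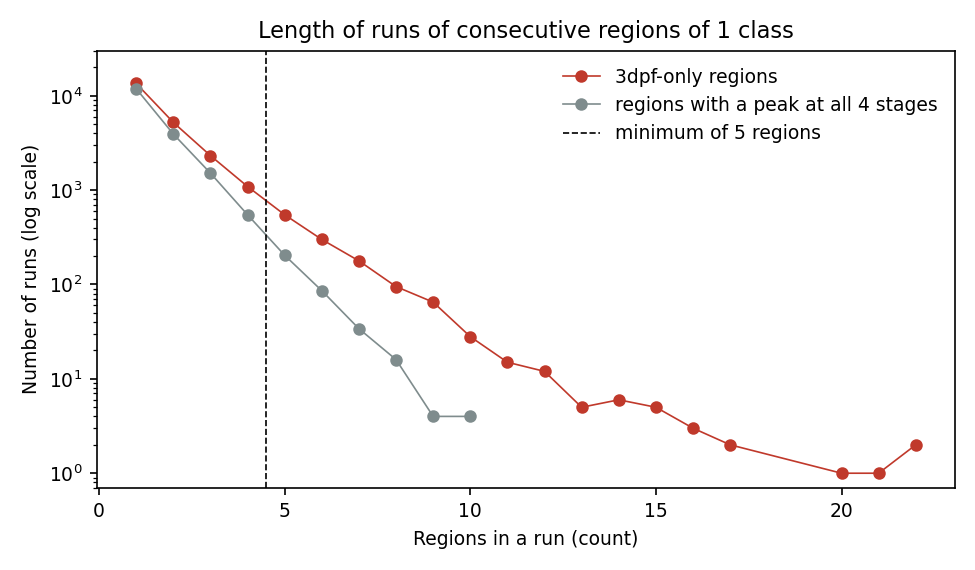
Number of runs (log axis) against the number of consecutive regions in a run, for 3dpf-only regions (red) and for regions with a peak at all 4 stages (grey). The 3dpf-only runs extend to 22 regions and those of the all-stage regions to 10, and the dashed line marks the minimum of 5 used here.

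The runs together spanned 36.7 Mb, or 6.72% of the 545 Mb up to the furthest peaks of the 22 chromosomes, and the member peaks covered 2.61 Mb of it. The median span of a run, from the start of its first to the end of its last region, was 20.8 kb (interquartile range 12.5 to 33.7 kb). There were 202 runs shorter than 10 kb, 151 longer than 50 kb and 31 longer than 100 kb. The median span rose with the number of regions, with 14.7 kb for 5 regions, 21.9 kb for 6 or 7, 35.1 kb for 8 to 11 and 58.6 kb for 12 or more. Each further region adds a gap and a peak to the span, so a rise follows from its definition. The median gap of the median run was 2605, 2507.5, 2580 and 2690 bp in these groups. Over all runs there were 2.21 members per 10 kb of span, and over the whole chromosomes 2.09 regions of any class per 10 kb. A span begins and ends with a region and leaves out the gaps on either side, which raises the first value. These densities are therefore not like measures and do not show that runs were denser.

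Members of a run were spaced much like other neighbouring regions. The median gap between neighbours inside a run was 2523 bp (interquartile range 920 to 5817, n = 6845 gaps), that between all neighbouring regions 2396 bp (732 to 5552, n = 114133), and that between neighbours that both held a later peak 2191.5 bp (544 to 5376). Very close neighbours were less common inside runs, where 15.9% of gaps were under 500 bp, against 19.7% over all neighbouring regions. Gaps over 20 kb made up 3.51% inside runs and 2.64% over all. Between neighbours in 3dpf-only runs of 2 to 4 regions, 17.6% of gaps were under 500 bp and 3.35% over 20 kb. Their median gap was 2320.5 bp. The share of long gaps was thus nearly the same in these shorter runs, and that of very short gaps lay between the 2 values above.

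Of the 9 runs with 16 or more regions, 3 lay on chromosome 1. The next place was shared by 5 runs of 15 regions, and the one with the highest −log10 p (the peak caller's significance), also on chromosome 1, completes the 10 described here. The others of 15 lay on chromosomes 2, 13 and 22, with 2 on chromosome 13. The run that ranked first lay on chromosome 9 from 17834142 to 17938268 and held 22 regions in 104 kb. Their fold enrichment over local background was lowest at 2.97, had a median of 4.04 and was highest at 6.12, in the region from 17917022 to 17917575. That region ranked 9115 of 94714 in the 3dpf list by −log10 p, and 4 of the 22 regions were in its top 50%. The 22 regions were densest near the end of the run, and the last 10 lay between 17917022 and 17938268. The regions next to this run were open at 15dph and 37dph before it and at 3dpf and 15dph after it.

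The other run of 22 regions lay on chromosome 15 from 16910234 to 17010617 (100 kb), with a median fold enrichment of 4.49 and a range of 2.54 to 8.47. It was bounded by a 15dph-only and a 37dph-only region, so that no region shared with 3dpf touched either side. The run of 21 regions on chromosome 1 from 28856898 to 28943858 (87.0 kb) had the widest peaks of the 10, with a median width of 410 bp, a narrowest peak of 161 bp and a widest of 1031 bp. Its fold enrichment ranged from 3.76 to 7.08 with a median of 4.58, and 11 of its 21 regions were in the top 50% of the list. The strongest was its last region, from 28943312 to 28943858. On chromosome 6, from 4582419 to 4683283, 20 regions followed each other in 100.9 kb, with a median fold enrichment of 4.25 and a highest value of 8.86.

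The remaining 6 of these runs had 15 to 17 regions. Chromosome 2 carried 17 in only 51.7 kb (8482693 to 8534355), and chromosome 12 carried 17 in 185 kb (3295857 to 3480879), inside an interval of 263 kb without any later peak. On chromosome 13, from 25336392 to 25406298, 16 regions had the highest median fold enrichment of the 10 runs, at 4.86, and 3 of them were in the top 10% of the 3dpf list. Chromosome 1 had 16 regions from 8141109 to 8206088 and 16 more from 8305491 to 8374642, with a run of 5 between them, and 15 regions from 24791275 to 24845395. Their medians of fold enrichment were 4.19, 4.18 and 4.40.

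When the lists were cut to equal length, these runs fared differently. In the run of 21 regions on chromosome 1, 11 regions were still in runs, and in the run of 22 on chromosome 15, 9 were. In the run of 22 on chromosome 9 and in the runs of 16 regions on chromosome 1, 0 were. The run of 15 on chromosome 1 kept 8, and the runs on chromosomes 2, 6, 12 and 13 kept 6 each. With a global IDR of at most 0.05, between 11 and 21 regions of each of the 10 were still in runs.

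**Figure D2:**
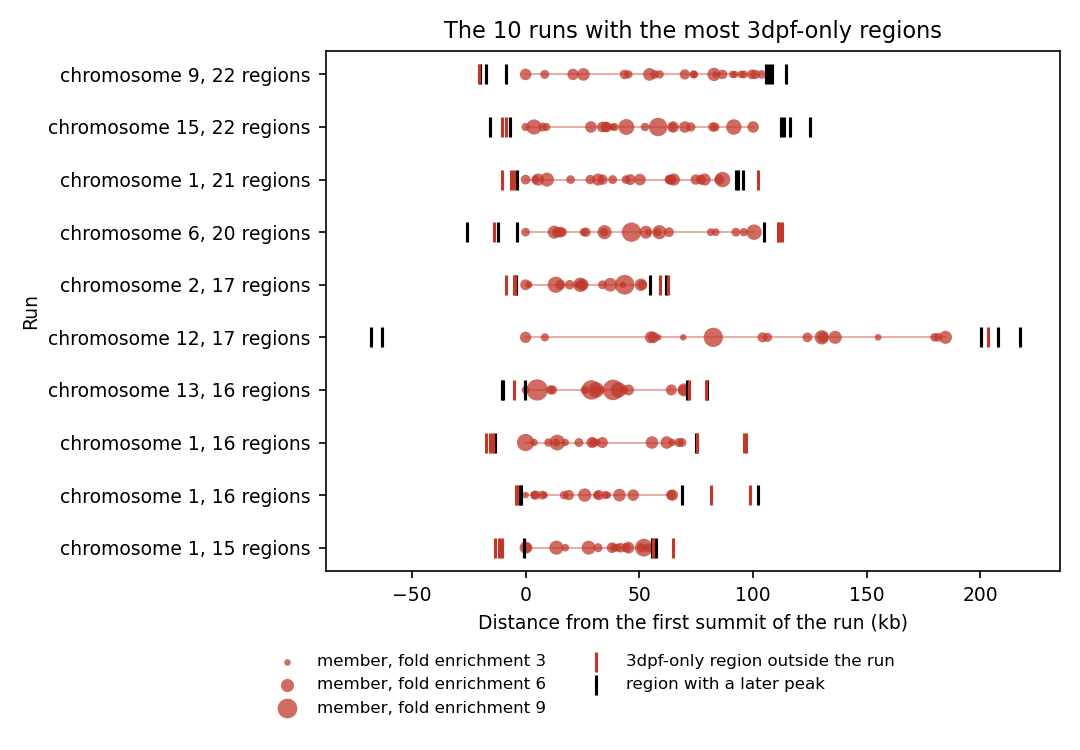
Positions of the members (red circles, area growing with 3dpf fold enrichment) of the 10 runs with the most regions, as distance in kb from the first summit of each run, with up to 4 neighbouring regions on each side as ticks, red where 3dpf-only and black where a later peak was present. Spans differ from 51.7 kb on chromosome 2 to 185 kb on chromosome 12, and the strongest members stand at different places in different runs.

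The runs of widest span held few regions for their length. On chromosome 12, 9 regions were spread over 994 kb (24401882 to 25395789), with gaps of up to 322 kb between neighbours. On chromosome 22, 9 regions lay in 854 kb (13863378 to 14717563), with a largest gap of 366563 bp, and on chromosome 20, 5 regions in 196 kb (1490332 to 1685921). Their peaks were narrow, with median widths of 189, 201 and 178 bp, compared with 290 bp over all members. In the runs on chromosomes 12 and 20, 0 members were in the top 50% of the list, and in that on chromosome 22 there were 2. Gaps in the assembly were not examined, so whether these runs cross unassembled sequence was not tested. In 16 of the 1266 runs a gap was over 50 kb. Ending runs at such gaps left 1258 runs with 8052 members.

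The most compact runs measured a few kb. On chromosome 5, from 21433834 to 21436106, 5 regions filled 73.1% of 2.27 kb. Their gaps were 21, 20, 70 and 500 bp, and their fold enrichments, in order, were 3.93, 3.91, 5.48, 4.62 and 4.24. The strongest was the third, from 21434460 to 21434774, which ranked 30515 in the 3dpf list. Whether peak calling divided 1 broad open stretch here was not tested. The next most compact runs also had 5 regions each, on chromosome 17 from 15568902 to 15571793 (2.89 kb) and again on chromosome 5 from 890833 to 893742 (2.91 kb), with fold enrichments of 3.27 to 4.03 and 3.36 to 5.33. When peaks up to 500 bp apart were joined into 1 region, 5073 regions in 813 runs remained over the series.

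The run with the highest median fold enrichment lay on chromosome 10 from 3772010 to 3795042. Its 5 regions had fold enrichments of 7.79, 8.78, 3.86, 9.62 and 5.70 and −log10 p of 42.4, 56.3, 13.3, 59.4 and 30.4. Thus 4 of the 5 were in the top 50% of the list, and the middle one was weak. Regions open at all 4 stages bounded it on both sides.

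The strongest members by −log10 p stood in 5 different runs. The first was the opening region of a run of 7 on chromosome 21, from 9519475 to 9519725. It was 11.5-fold enriched, its −log10 p was 84.8, and it ranked 909 of 94714. The other 6 members of that run had fold enrichments between 3.76 and 6.24. On chromosome 5, the region from 28069898 to 28070619 (722 bp) was 11.7-fold enriched, at a −log10 p of 83.6 (rank 999), and its run of 7 held 2 further strong regions, with fold enrichments of 9.64 and 8.59. The next was the fourth of 6 regions on chromosome 18, from 21170575 to 21171031, which was 10.1-fold enriched and ranked 1907. On chromosome 7, the last of 5 regions, from 22937862 to 22938297, was 9.74-fold enriched and ranked 1924. The last of the set was the sixth of 16 regions in the run on chromosome 13, from 25365297 to 25365994, which was 8.92-fold enriched and ranked 1993.

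Within a run, strong and weak peaks were mixed. The highest fold enrichment of a run was a median of 1.80 times its lowest (interquartile range 1.58 to 2.11), and in 420 of 1266 runs (33.2%) it was more than 2 times the lowest. This ratio grew with the number of regions compared, with a median of 1.71 in runs of 5 and 1.79 in runs of 6 or 7. In runs of 8 to 11 it was 1.99, and in runs of 12 or more 2.42. At least 1 member in the top 50% of the 3dpf list was found in 87.7% of runs (85.8 to 89.4), and at least 1 in the top 10% in 122 runs (9.64%). All members were in the top 50% in 1 run and below it in 156. Of single members, 32.4% were in the top 50% and 1.65% in the top 10%. A run has at least 5 members, so the shares of runs with at least 1 are higher by construction. Whether runs mixed strong and weak peaks more than other sets of 3dpf-only regions was not tested. The strongest member was the first or the last of its run in 395 runs (31.2%, 28.7 to 33.8). First and last regions made up 31.2% of all members. That share gives longer runs more weight, so it is not the share to be expected per run, which was not computed.

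Members and other 3dpf-only regions had equal median fold enrichment in the full lists. Both medians fell on the same value, which recurs among the peaks, so the equality is a tie and does not by itself show likeness. The median −log10 p was slightly higher in members, at 17.2 against 16.8. The median fold enrichment was 4.35 in members (interquartile range 3.75 to 5.25) and 4.35 in other 3dpf-only regions (3.76 to 5.21), compared with 5.78 (4.59 to 7.35) for the 3dpf peaks of the 50215 regions that also had a later peak. Of the members, 32.4% (31.4 to 33.4) were in the top 50% of the 3dpf list, against 29.9% (29.5 to 30.4) of other 3dpf-only regions and 67.3% (66.9 to 67.7) of regions shared with a later stage. In the top 10% of the list were 134 members (1.65%) and 464 other 3dpf-only regions (1.31%). By chromosome, the median fold enrichment was higher in members than in other 3dpf-only regions on 13 of 22 chromosomes, and the differences ranged from −0.235 to 0.161. With equal lists the median was 5.65 in members and 5.88 in other 3dpf-only regions, and it was higher in members on 4 of 22 chromosomes. With a global IDR of at most 0.01 it was higher on 8 of 22. These values come from the list on which the members were selected and are given as a description only.

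Members were slightly wider. The median 3dpf peak width was 290 bp in members (interquartile range 224 to 387) and 268 bp in other 3dpf-only regions (210 to 357), and it was 277 bp in regions shared with a later stage. Members were wider on 22 of 22 chromosomes, by 6 to 42 bp. A width of 500 bp or more was seen in 10.2% (9.60 to 10.9) of members and in 7.503% (7.23 to 7.78) of other 3dpf-only regions. The median width was 259 bp for regions that stood alone, 270 bp in runs of 2, 276 bp in runs of 3, 283 bp in runs of 4 and 286 bp in runs of 5. Among longer runs the order was not strict, with 285.5 bp in runs of 7, between 289 and 296 bp in runs of 6 and of 8 to 11, and 308 bp in runs of 12 or more. Fold enrichment showed no such order. Medians were 4.35 for regions that stood alone, 3.97 in runs of 11 (n = 165 regions) and 4.40 in runs of 12 or more. The median −log10 p did rise over the short runs. It was 16.2 for regions that stood alone, 16.8 in runs of 2 and 17.1 in runs of 3 and of 4. Among longer runs its order was not strict. The values were 16.9 in runs of 6, 16.5 in runs of 11 and 17.6 in runs of 12 or more.

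The width difference was also seen at like strength. When 3dpf-only regions were divided into 10 bins of the 3dpf list by −log10 p, members were wider in all bins but the strongest. There the 134 members had a median width of 418 bp and the 464 other regions 428.5 bp. In the other bins the difference was between 9.5 bp, in the weakest, and 34 bp. By place in the run, the median width was 285 bp in the first and last regions, 291 bp in those next to them and 294 bp further inside, and the median fold enrichments at these places were 4.35, 4.38 and 4.36. Longer runs weigh more in the inner group, so place and run length are not separated here. With equal lists the difference in median width was 41.5 bp (389.5 bp in members and 348 bp in others), and it was positive on 20 chromosomes.

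**Figure D3:**
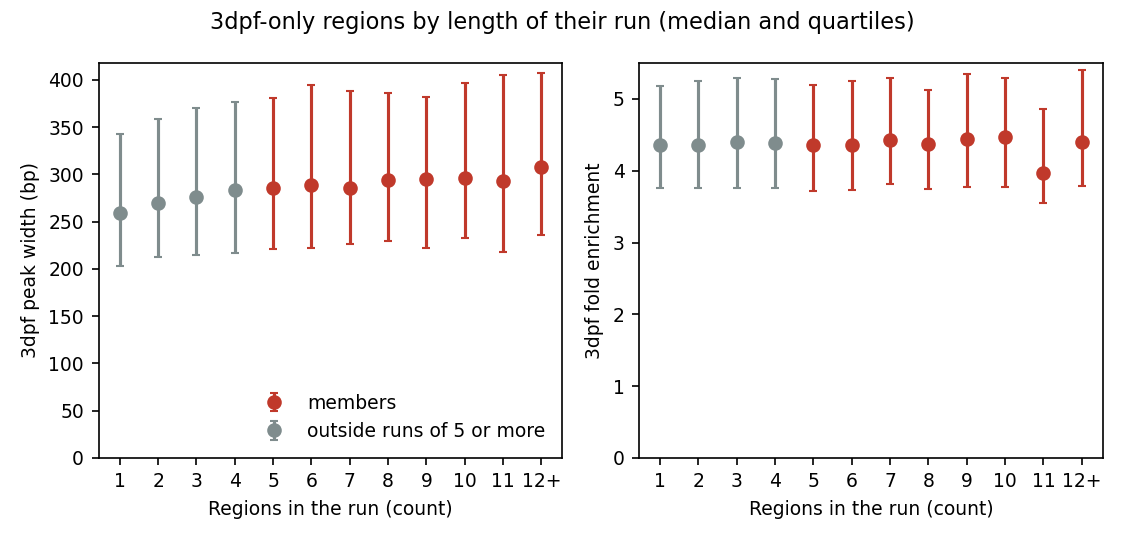
Median (points) and quartiles (bars) of 3dpf peak width in bp (left) and of 3dpf fold enrichment over local background (right) for 3dpf-only regions by the number of regions in their run. Red points are members and grey points are 3dpf-only regions outside runs of 5 or more, and the median width was 308 bp in runs of 12 or more and 259 bp in regions that stood alone.

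Members were present on all 22 chromosomes, in unequal shares. They made up 10.5% (9.71 to 11.4) of the regions of chromosome 13, 10.1% (9.19 to 11.2) of chromosome 21, 9.10% (8.41 to 9.85) of chromosome 5 and 8.94% (8.29 to 9.62) of chromosome 1. The lowest shares were 4.86% (4.17 to 5.66) on chromosome 22 and 5.34% (4.73 to 6.02) on chromosome 19. Per Mb, chromosome 21 had 22.2 members and chromosome 22 had 10.2. The same chromosomes stood at the ends for all 3dpf-only regions, with 43.2% of the regions on chromosome 21, 42.6% on chromosome 13, 34.4% on chromosome 19 and 33.8% on chromosome 22, and the members are drawn from that class. Chromosome 1 had the most runs, 91, and chromosome 22 the fewest, 24.

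**Figure D4:**
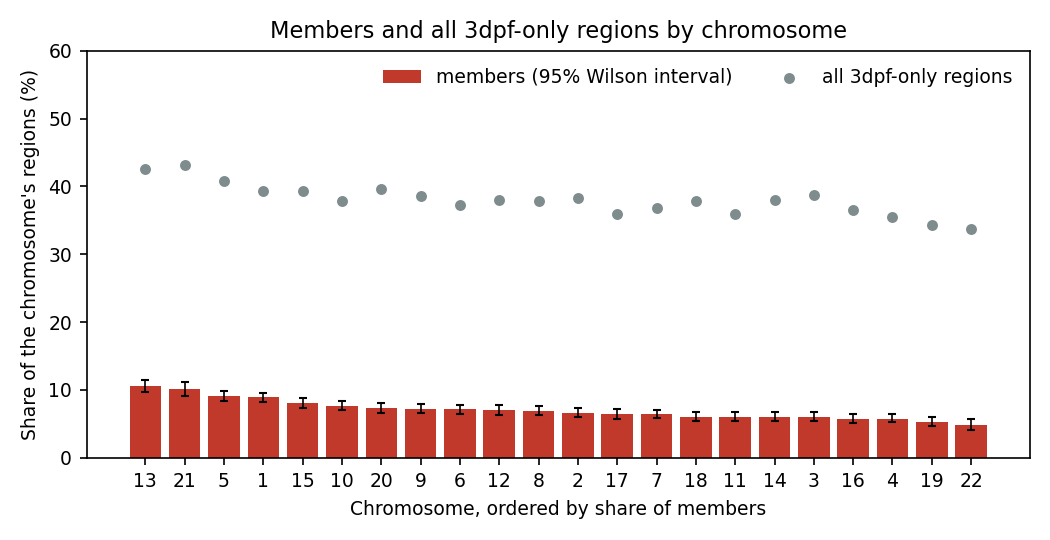
Share of the regions of each chromosome that were members (bars with 95% Wilson intervals) and share that were 3dpf-only (grey points), in percent, with chromosomes ordered by the share of members. Chromosomes 13 and 21 lead in both measures, and chromosomes 19 and 22 are lowest in both.

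Along the chromosomes, members were less frequent near the middle. With the furthest peak taken as the end of each chromosome, members were 5.36% (5.09 to 5.65) of regions in the middle 20% of the length and 7.58% (7.41 to 7.75) elsewhere. The share was lower in the middle on 18 of 22 chromosomes and higher on chromosomes 8, 9, 11 and 21. On chromosome 21 it was 15.0% in the middle and 8.76% elsewhere, and on chromosome 9 the values were nearly equal, at 7.24% and 7.21%. The highest shares were found at 80 to 90% of the length (9.34%, 8.80 to 9.93) and at 10 to 20% (8.79%, 8.27 to 9.34). The share of all 3dpf-only regions had the same shape, with 34.4% at 50 to 60% of the length and 42.5% at 80 to 90%.

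Members were unevenly spread over windows, which follows in part from the rule, since they come in groups of at least 5. Of 556 windows of 1 Mb, 81 held no member, and the median was 12 (interquartile range 6 to 21). The fullest windows, singled out after their values were seen, lay on chromosome 1 between 28 and 29 Mb, with 70 members among 238 regions, and on chromosome 5 between 20 and 21 Mb, with 67 among 244. The first of these includes the run of 21 regions. Next came chromosome 1 between 8 and 9 Mb, with 60 members among 237 regions, and between 24 and 25 Mb, with 59 among 256. The windows on chromosome 1 between 28 and 29 Mb and on chromosome 5 held 122 and 140 3dpf-only regions. Members were 29.4% and 27.5% of their regions, against 7.11% of all regions. Some windows with fewer regions had higher shares, such as 35.4% of 82 on chromosome 13 between 21 and 22 Mb.

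In places, a single region with a later peak divided a longer stretch. In 76 of the 1244 pairs of neighbouring runs on a chromosome, exactly 1 region stood between them, and in 103 there were 2 to 5. The median between neighbouring runs was 47 regions. The largest such pair joined 9 and 21 regions on chromosome 1 from 28819847 to 28943858, 124 kb in all, around a region that was open at all 4 stages. On chromosome 2 from 8381525 to 8534355, runs of 12 and 17 regions in 153 kb were divided by a region open at 3dpf and 15dph. In 15 of the 76 pairs the dividing region was 15dph-only, in 13 it was open at 3dpf and 15dph, and in 13 at all 4 stages. In 6 it was 37dph-only. Of all regions with a later peak, 7.98%, 10.5%, 40.2% and 7.55% were of these kinds, in this order. In an alternative, single regions with a later peak were allowed between stretches of 3dpf-only regions. They could occur any number of times in a run, and a stretch could be as short as 1 region. Then 21043 3dpf-only regions in 2627 runs met the rule, and the longest had 39. This count is therefore not one of the 76 pairs rejoined.

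The surroundings of the runs were also rich in 3dpf-only regions. The region next to a run cannot be 3dpf-only by the rule, so counting began at the second. Of the second regions outward, 48.1% (46.2 to 50.1) were 3dpf-only, against 38.0% of all regions. The share was 47.1% at the seventh and 42.4% at the tenth, and from there to the thirtieth it lay between 39.96% and 43.7%. The share of 39.96% (38.07 to 41.9), at the 21st region, was the one whose interval came closest to that over all regions. Members of neighbouring runs are included in these shares.

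**Figure D5:**
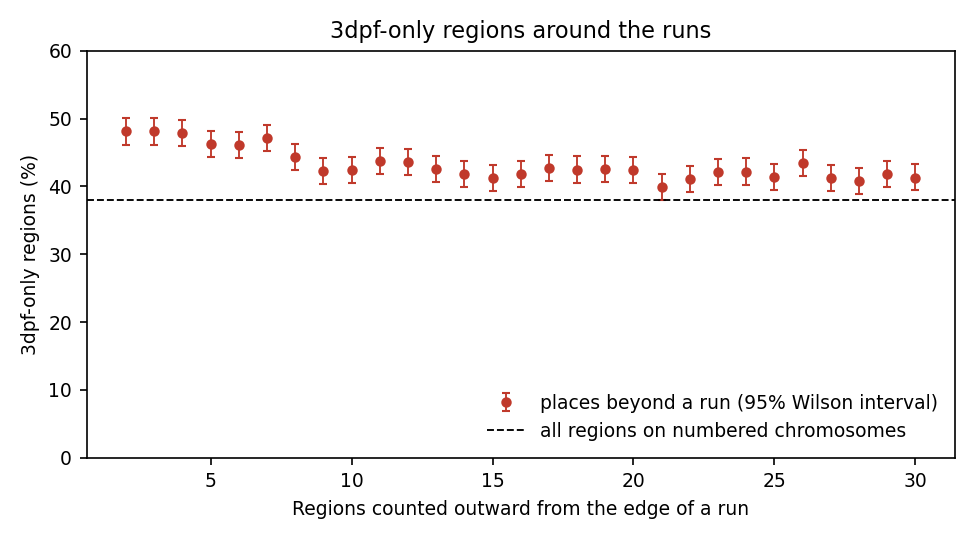
Share of regions that were 3dpf-only (percent, with 95% Wilson intervals) at the second to the thirtieth region outward from the edges of the 1266 runs. The dashed line is the share over all regions, 38.0%, and the share was 48.1% at the second region and 41.3% at the thirtieth.

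The regions that bounded the runs were less often open throughout development. None of the runs reached the end of the peaks of a chromosome, so there were 2532 bounding places, filled by 2456 different regions. Of the places, 24.6% (23.0 to 26.3) were taken by regions open at all 4 stages, which were 40.2% of all regions with a later peak. Regions open at 3dpf and 15dph took 18.1% (16.6 to 19.6), against 10.5% of all regions with a later peak, and 15dph-only regions 13.4% (12.1 to 14.8), against 7.98%. Regions with a single later stage, with or without a 3dpf peak, took 51.1% (49.1 to 53.0), against 36.4%. A 37dph peak was present in 42.5% (40.6 to 44.4) of the bounding places and in 62.2% of all regions with a later peak, whereas a 15dph peak was present in 78.4% and 79.6%.

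The later peaks at these borders were also weaker. Of the bounding regions with a 15dph peak, 35.6% (33.5 to 37.8) had one in the top 50% of the 15dph list, against 50.6% of all regions with a 15dph peak. The values were 37.7% and 50.8% for 23dph and 37.6% and 51.1% for 37dph. Bounding regions differed from all regions in their stage patterns, as given above. Ranks were not compared within a pattern or at like interval length, so this is not a result separate from that difference.

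Every region that is not 3dpf-only has a later peak, so each run fills 1 interval between neighbouring regions with a later peak. There were 70731 such intervals. Those that held a run had a median length of 28.7 kb (interquartile range 18.6 to 48.2), those with 1 to 4 3dpf-only regions 8.56 kb (4.93 to 14.9) and those with none 2.19 kb (0.544 to 5.38). Longer intervals have room for more regions. Runs were found in 0.271% of intervals of 5 to 10 kb, 3.26% of those of 10 to 20 kb, 13.9% (12.9 to 15.0) of those of 20 to 50 kb, 32.0% (28.7 to 35.5) of those of 50 to 100 kb and 53.7% (44.3 to 62.8) of the 108 intervals of 100 to 200 kb. The converse was also seen, since of 845 intervals of 50 kb or more 82 had no 3dpf-only region at all. The density of 3dpf-only regions was 0.920 per 10 kb in intervals under 5 kb and 0.968 in those of 5 to 10 kb. Beyond that length it went down, with 0.929 in intervals of 10 to 20 kb, 0.781 in those of 20 to 50 kb and 0.0672 in the 25 intervals of 200 kb or more, 5 of which held a run.

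The kind of border was also compared within bins of interval length. Lengths were not compared inside a bin, so the bins do not hold length equal. In intervals of 20 to 50 kb, regions open at all 4 stages took 24.1% (21.8 to 26.6) of the border places where a run was present (609 intervals), 30.2% (29.0 to 31.3) where there were 1 to 4 3dpf-only regions (2892) and 35.5% (33.3 to 37.8) where there were none (872). A 37dph peak was present at 40.7% (38.0 to 43.5), 47.8% (46.5 to 49.1) and 55.0% (52.6 to 57.3) of these places. In intervals of 10 to 20 kb the shares of all-stage borders were 28.9% (25.5 to 32.5), 33.6% and 40.8%. In intervals of 50 to 200 kb they were 21.2% (18.01 to 24.7), 27.2% (24.4 to 30.2) and 25.7% (19.4 to 33.1), and the last rests on 76 intervals. The order of the shorter bins was not kept there, and the range of the last share covered the first.

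The 3 later lists did not limit the runs equally. Without the 37dph list, 9480 regions met the rule, and without the 23dph list 10387. Without the 15dph list, the longest of the later lists, there were 16514 members in 2306 runs, and the longest run had 30 regions. Leaving out a later list can only add to the runs, by construction.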

How the data were processed

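ATAC-seq was performed by the authors on 2 replicates at each of 4 stages. They aligned reads with Bowtie2 to ASM1334776v1, kept short fragments, called peaks with MACS2 and joined replicates by IDR. The deposited lists give, per peak, a fold enrichment ratio over local background, a −log10 p, an IDR score and a −log10 of the global IDR. Depth is not part of the lists, and strength was compared only within a list.

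Peaks on the 22 numbered chromosomes sharing at least 1 bp were joined into regions, and runs were counted after sorting by start. The region and run code, joining at 1 bp, was tested on simulated lists and recovered the known numbers of runs and members. The simulated regions never touched each other, so peaks that chain regions together were not covered. No such check was required of the other linking rules. Named runs are the 10 with the most regions, the 3 widest, the 3 densest and the one with the highest median fold enrichment. Named regions are the 5 members with the highest −log10 p. The members, the lists and these rules were chosen with earlier results of these data known. No test over samples was possible. Annotation, GC content and motifs were not analysed here, because no genome or annotation of this assembly was used. Calculations were run in Python 3.11.15 with pandas 2.3.3 and numpy 2.4.6, intervals in scipy 1.17.1, and figures were drawn in matplotlib 3.10.9. The name of the 23dph list carries another day, and the label was followed. Alternatives covered list length, IDR limit, linking, minimum run length and the lists included.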

Additional observations from a re-analysis of the deposited data

How the results depend on the processing

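Run counts were recomputed under 15 alternatives. When all lists were cut to 46248 peaks, there were 778 members in 133 runs, at most 12 regions in a run and a median span of 33.35 kb. By construction, this cut shortens the 3dpf list most, from 94714 peaks, and leaves the 37dph list whole. The top 50% of each list, a cut by the same share for every list, gave 5942 members and a median span of 47.2 kb. Limiting the global IDR to 0.01 gave 8181 members and 34.9 kb. Under that IDR limit 2963 of the member peaks (36.5% of 8111) were still in runs, in the top 50% 1536 (18.9%) were, and under a limit of 0.05, with a similar total, 5194 (64.0%) were. Joining peaks up to 500 bp apart gave 5073 members in 813 runs. Runs of 4 or more gave 12479 in 2358, runs of 6 or more 5371 in 718, and leaving out the 15dph list 16514 in 2306. Allowing single regions of another class between stretches, any number of times in a run, gave 21043 in 2627. There were at most 39 in a run, and the median span was 32.0 kb (31.97). An IDR limit of 0.05, both other linking rules, scaffolds, a 50 kb gap limit and leaving out the 23dph or 37dph list moved no count by more than 1.5 times.

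The median width of members minus that of other 3dpf-only regions was 22 bp. It was 41.5 bp with equal lists and 38 bp with a global IDR of at most 0.01, moves larger than the SD over chromosomes in the full lists (9.14 bp), though not, for equal lists, than the SD found there (32.5 bp). It stayed positive under the 4 alternatives tried. The difference in median fold enrichment, 0 in the full lists, where both medians fell on the same recurring value, was −0.235 with equal lists. The cause was not tested. No paired analysis was possible because each list merges both replicates, which also means that neither could be left out. The share of members inside genes was not run. The lists carry no depth, so counts could not be adjusted for it.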

Other observations

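Outside the numbered chromosomes there were 38 regions, of which 11 were 3dpf-only. The longest run among them had 3 regions, so 0 runs met the rule there.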
